A study of Mus musculus with 16 samples.

Results

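Oxidative phosphorylation is carried out by the protein complexes of the inner mitochondrial membrane. Complexes I and II pass electrons from NADH and succinate to ubiquinone, complex III hands them to cytochrome c, and complex IV, cytochrome c oxidase, gives them to oxygen. Complexes I, III and IV pump protons, and complex V, the ATP synthase, uses the returning protons to make ATP. Macrophages are known to change their use of this pathway when they meet bacterial lipopolysaccharide (LPS). The genes described here are those whose symbol begins with Ndufa, Ndufb, Ndufc, Ndufs, Ndufv, Sdha to Sdhd, Uqcr, Cox4 to Cox8 or Atp5, without those beginning with Ndufaf. They numbered 89 of the 24411 genes of the table. By known product, 36 belonged to complex I, 4 to complex II, 8 to complex III, 18 to complex IV and 15 to complex V. The other 8 (Sdhaf1 to Sdhaf4, Atp5s, Atp5sl, Ndufa4l2 and Cox7a2l) share the name of a subunit without being counted as a subunit of that complex here, and are called name-alike genes. Ndufa4, named after complex I, was counted with complex IV. The subunits encoded by mitochondrial DNA carry other symbols and were not analysed here.

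All samples were brain macrophages of wild-type C57BL/6J bone marrow chimeras: the recipients were irradiated with 950 cGy and received congenic marrow that carries the CD45.1 allele. Engrafted cells (CD45.1) and host microglia (CD45.2) were sorted from the same brains as CD11b-positive cells without Ly6C/G. The 4 control mice were not injected, and the 4 LPS mice had received 2.5 mg/kg LPS 12 h before they were killed. This gave 4 groups of 4 libraries, and a library is named here by its population and by the number of its mouse, 1 to 4 with LPS and 5 to 8 without. The sample labels allow 3.5 or 9 months after transplantation without assigning a time to each library, and they give no age. In these mice the engrafted cells differ from host microglia in origin and in marrow donor, and the host cells had been irradiated, so these properties cannot be told apart from the population.

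Reads on genes ranged from 395283 to 1203597 per library, and the 89 genes held 0.903 to 1.33% of them. The sum of 8 microglia markers was 21540 to 23490 CPM (reads on a gene scaled to the size of its library) in host control libraries and 14210 to 15670 in engrafted control libraries. The sum of 6 genes that mark engrafted cells was 3970 to 7459 and 61680 to 86750 CPM in the same libraries. Apoe made up most of it, with means of 4854 CPM in host control and 70670 CPM in engrafted control libraries. With LPS the microglia markers summed to 10090 to 11580 CPM in host and to 4675 to 6260 CPM in engrafted libraries. The engrafted cell markers then summed to 2929 to 4631 and to 45970 to 97070 CPM. Apoe, with a mean of 58620 CPM in engrafted LPS libraries, again made up most of the sum. In engrafted cells the mean of Ms4a7 went from 552 to 270 CPM, of Cd74 from 5741 to 2082 CPM and of Clec12a from 525 to 73.8 CPM. Ccr2 was lower with LPS as well, and Mrc1 was not (447.5 CPM without and 504 CPM with it). The libraries of mice 4 and 8 stood apart by RNA of red blood cells: 5 marker genes summed to 6362 CPM (engrafted) and 782 CPM (host) in mouse 4, and to 4613 and 700.5 CPM in mouse 8. In the libraries of the other 6 mice the sum was 2.56 to 155 CPM. The engrafted library of mouse 4 was also the shallowest. Counts of called genes, called changes over 2-fold and the summed levels of the complexes are given with and without them. In engrafted cells, 9 neutrophil markers summed to 276 to 1274 CPM without LPS and to 49.3 to 498 CPM with it (at most 14.6 CPM in host microglia), with Ly6g at 3 reads or fewer in every library, and 5 monocyte markers to 146 to 276 CPM without LPS and to 742 to 1658 CPM with it (at most 23.2 CPM in host microglia). Their part in the results was not tested.

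The levels below are CPM over scaled library sizes, and a fold change is between the groups compared, on the log2 scale with its standard error (SE). A gene was called at an adjusted p below 0.05 (quasi-likelihood test of edgeR, Benjamini-Hochberg adjustment across every gene tested), written as edgeR adjusted p. Of the 89 genes, 72 had enough reads to be tested in all 5 comparisons, 78 in at least 1 and 11 in none. Among the 11 were Ndufab1, the acyl carrier protein of complex I, Ndufs5, the c ring gene Atp5g2, and isoforms known from muscle, lung or testis. Cox4i2, Cox7a1, Cox7b2, Cox8c and Ndufa4l2, a gene known to respond to hypoxia, had 3 reads or fewer in every library. Many of these genes have processed copies in the genome. Of 87 genes searched, 26 had a near-identical copy of the end of their transcript elsewhere in mm9 (at least 95% identity over at least 150 of its last 300 bases): Atp5l had 12, Cox7c 4, and Cox5b 2. Only uniquely mapped reads were counted, so the levels of such genes are uncertain. Of the genes described below, Atp5g1, Atp5h, Atp5j, Atp5j2, Atp5o, Cox5a, Cox5b, Cox6a1, Cox8a, Ndufb6, Ndufs6, Uqcr11 and Uqcrq have such a copy.

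The upstream sequences of 3 of the 8 genes that rose more than 2-fold in engrafted cells after LPS are shown, because nuclear genes of this pathway are known to be controlled through sites of NRF1 and of ETS family, ERR and YY1 factors next to their start. RefSeq promoters (GRCm38.p6) were found for 74 of the 89 genes. Each line holds the 100 bases before the start of the gene, 5′ to 3′ on its own strand, with matches to the motifs in capitals. They lie on the minus strand at chr9:50603850-50603949 (Sdhd), chr2:73911327-73911426 (Atp5g3) and chr3:105959264-105959363 (Atp5f1).
Sdhd: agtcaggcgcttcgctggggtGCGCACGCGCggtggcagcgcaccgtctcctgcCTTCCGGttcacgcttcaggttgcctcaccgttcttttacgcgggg
Atp5g3: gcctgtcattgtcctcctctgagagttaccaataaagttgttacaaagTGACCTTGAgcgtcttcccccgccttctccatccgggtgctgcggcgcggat
Atp5f1: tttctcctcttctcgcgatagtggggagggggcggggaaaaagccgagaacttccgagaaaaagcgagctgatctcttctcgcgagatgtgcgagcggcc

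In Sdhd the capitals mark an NRF1 match that begins 79 bases before the start and an ETS match 46 bases before it. In Atp5g3 they mark an ERR match 52 bases before the start. The stretch shown for Atp5f1 held none of the 4 motifs, and the same was true of 6 of the 8 genes: Atp5f1, Cox5a, Cox5b, Ndufa12, Sdhaf1 and Uqcrfs1. Over the window from 250 bases before to 50 bases after the start, on both strands, the NRF1 motif (GCGC, any base, then TGCGC) was found in 25.7% of the 74 genes and in 5.19% of all 27025 genes of the promoter table. The ETS motif CCGGAAG was found in 25.7% against 9.93%, the ERR motif TCAAGGTCA in 2.7% against 0.47%, and the YY1 motif (AAGATGG followed by CGG) in 8.11% against 1.0%. Among 20 of the genes raised by LPS in engrafted cells, 6 held the NRF1 motif and 5 the ETS motif, and among 41 genes tested there and not raised the numbers were 9 and 12. The 2 genes with the ERR motif were both among those raised. A match is a description of the letters and says nothing of binding in these cells.

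The first question was what the challenge did to these genes in engrafted cells. Of 72 genes tested, 23 rose and 1 fell after LPS, where 19.6% of all genes tested rose and 19.3% fell. Of the 23, 8 rose more than 2-fold, against 9.29% of all genes, and no fall was over 2-fold, against 9.61%. The median log2 change was 0.30 for these genes and 0.00 for all genes tested. Of the 13 tested genes of the ATP synthase 7 rose, beside 8 of 34 in complex I, 2 of 4 in complex II, 1 of 8 in complex III and 4 of 9 in complex IV. In these bulk samples, more cells that express a gene and more RNA per cell cannot be told apart.

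**Figure D1:**
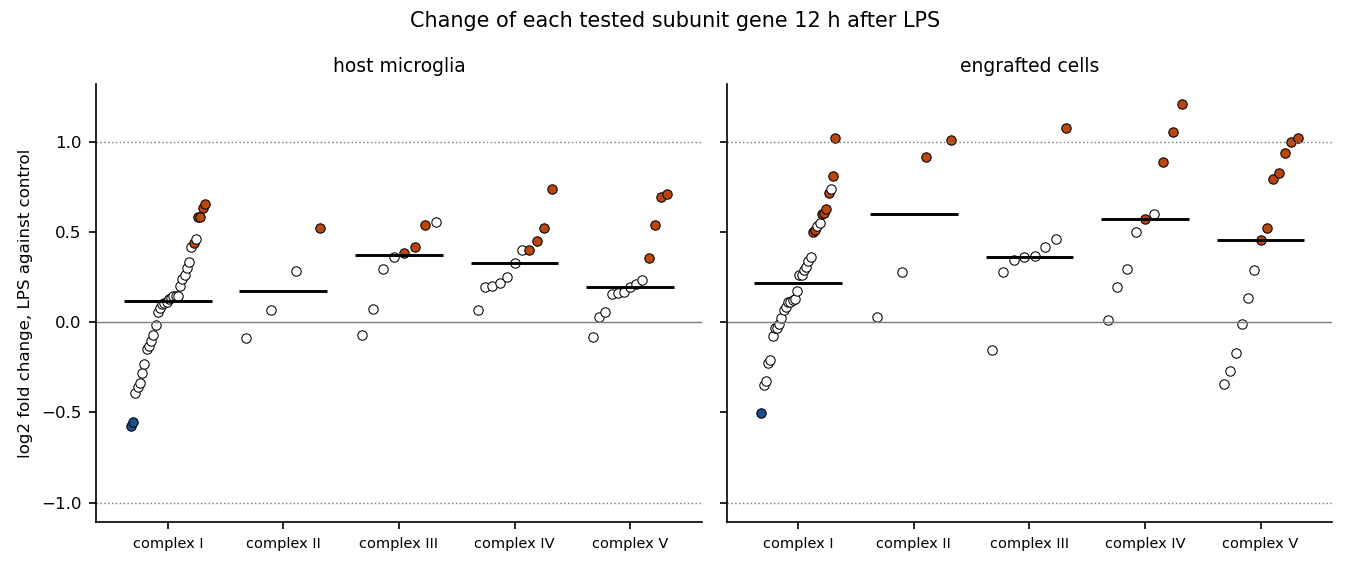
Log2 fold change of each tested subunit gene 12 h after LPS in host microglia (left) and engrafted cells (right), by complex; filled points were called (red higher, blue lower), open points were not, bars mark the median and dotted lines 2-fold. In engrafted cells 8 of 34 complex I genes and 7 of 13 complex V genes are filled red, and Cox5a is the highest point.

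Within the ATP synthase the rise covered the catalytic head, the c ring and the stalk that holds the head. Atp5b encodes the catalytic beta subunit. Its level was 375, 396, 347 and 378 CPM in the engrafted control libraries and 748, 712, 599.5 and 529.7 CPM in those with LPS. The lowest LPS library lay above the highest control library, and the log2 change was 0.79 (SE 0.17, edgeR adjusted p = 0.000729). Atp5a1, the alpha subunit, was at 168 to 179.9 CPM without and 288 to 338 CPM with LPS, a log2 change of 0.83 (SE 0.16, edgeR adjusted p = 0.000316). Atp5d (0.53), also of the head, rose as well, so that 3 of the 5 head genes were called. Both tested genes of the proton-driven c ring rose, Atp5g3 by 1.02 (SE 0.24, edgeR adjusted p = 0.00228) and Atp5g1, a gene with a copy, by 0.94 (SE 0.20, edgeR adjusted p = 0.000606). Atp5g3 reached 506 to 673 CPM in 3 LPS libraries and 1208 CPM in that of mouse 4, and its log2 change without that library was 0.71. In the stalk, Atp5f1 (log2 change 1.00, and 0.99 without that library) and Atp5o (0.46, with a copy) rose, and Atp5h and Atp5j were not called. None of the small membrane subunits tested was called.

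All 4 genes of complex II, the succinate dehydrogenase, were tested. The membrane anchor genes Sdhc and Sdhd rose, and the catalytic genes Sdha and Sdhb were not called. Sdhd (NM_025848, mm9 chr9:50404445-50411954) stood at 87.0, 67.8, 90.5 and 72.3 CPM without LPS. With LPS it stood at 152.5, 144, 138 and 233 CPM. Every LPS library lay above every control library, that of mouse 4 highest, and the log2 change was 1.01 (SE 0.20, edgeR adjusted p = 0.000286), or 0.86 without that library. Sdhc was at 79.7 to 91.1 CPM and then at 134.5 to 207 CPM, a log2 change of 0.92 (SE 0.18, edgeR adjusted p = 0.000327). Sdhb, the iron-sulfur subunit and the complex II gene with the highest mean level, had a mean of 257 ± 50.8 CPM without LPS and of 309.6 ± 24.1 CPM with it (SD, n = 4), and its edgeR adjusted p was 0.23. The largest log2 change of the 72 genes was that of Sdhaf1 (NM_001033140, mm9 chr7:31106428-31107394), an assembly factor that helps to equip the iron-sulfur subunit of complex II with its clusters and is a name-alike gene here. Sdhaf1 stood at 29.7, 34.8, 16.8 and 13.0 CPM without LPS and at 76.8, 74.5, 61.5 and 128 CPM with it. The groups did not overlap, and the log2 change was 1.65 (SE 0.27, edgeR adjusted p = 4.7e-05), or 1.48 without the library of mouse 4.

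In complex III the gene called was Uqcrfs1, the Rieske iron-sulfur protein (NM_025710, mm9 chr13:30632181-30637185). It stood at 86.0, 86.9, 73.7 and 111 CPM in engrafted control libraries. In the LPS libraries it stood at 173, 191, 120.4 and 297 CPM. All LPS libraries were higher than all controls, and the log2 change was 1.08 (SE 0.23, edgeR adjusted p = 0.000583), or 0.87 without that of mouse 4. The other 7 tested genes of this complex had log2 changes that did not pass the test. Uqcrq, a small subunit that binds ubiquinone, had 0.34 (edgeR adjusted p = 0.181).

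In complex IV the genes that rose in engrafted cells were Cox5a, Cox5b, Cox6a1 and Cox6b1, nuclear subunits that surround the catalytic core. Cox5a, Cox5b and Cox6a1 have a copy. Cox5a stood at 93.2, 115, 97.2 and 129.8 CPM without LPS and at 195, 178, 177 and 495 CPM with it. The library of mouse 4 stood far above the other LPS libraries, which were close together and above all controls, and without it the log2 change went from 1.21 (SE 0.29, edgeR adjusted p = 0.00353) to 0.77 (edgeR adjusted p = 0.000244). Cox5b stood at 62.5, 88.7, 82.1 and 70.5 CPM and then at 131, 142, 134.5 and 250.3 CPM, again with mouse 4 highest and no overlap. Its log2 change was 1.06 (SE 0.22, edgeR adjusted p = 0.000438), and 0.85 without that library. Cox4i1, the complex IV gene with the highest mean level, had 720.2 ± 93.0 CPM without LPS and 822 ± 35.0 CPM with it (SD, n = 4), and was not called (edgeR adjusted p = 0.366).

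In complex I, the electron entry from NADH, Ndufa12 rose by 1.02 (SE 0.24, edgeR adjusted p = 0.00186), or by 0.81 without the library of mouse 4, and Ndufs6 by 0.81 (SE 0.18, edgeR adjusted p = 0.000946). Both are accessory subunits. Ndufs6 was at 73.0 to 109 CPM in control libraries and at 160.1 to 196 CPM in LPS libraries, with that of mouse 4 lowest. Ndufs6 has a copy, and its transcript model in the table is a non-coding RefSeq entry. Ndufb9, Ndufa8, Ndufb7, Ndufv2, Ndufb8 and Ndufs4 rose by 0.50 to 0.72. Of the 7 core subunits encoded in the nucleus, which hold the flavin and the iron-sulfur clusters, Ndufv2 was the one that was called. Ndufa9, an accessory subunit at the joint of the arms of the complex, fell by 0.50 on the log2 scale (SE 0.19, edgeR adjusted p = 0.0426). Ndufa13, the complex I gene with the highest mean level, had a log2 change of 0.03 (edgeR adjusted p = 0.932).

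Mouse 4 bore on the size of these changes more than on the calls. Without its engrafted library, 29 genes rose and 1 fell, and 22 of the 24 calls held (Ndufa9 and Ndufb8 were lost). In that run 2 genes were over 2-fold in either direction. Of the 8 that had risen more than 2-fold, Sdhaf1 alone (log2 change 1.48) was among them. Without the control library of mouse 5 or of mouse 7, 5 genes were over 2-fold in either direction. Without mice 4 and 8, 31 genes rose, and the calls of Ndufa9 and Ndufb8 were lost. The call of Ndufa9 was also lost when any other engrafted library except that of mouse 5 was left out.

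**Figure D2:**
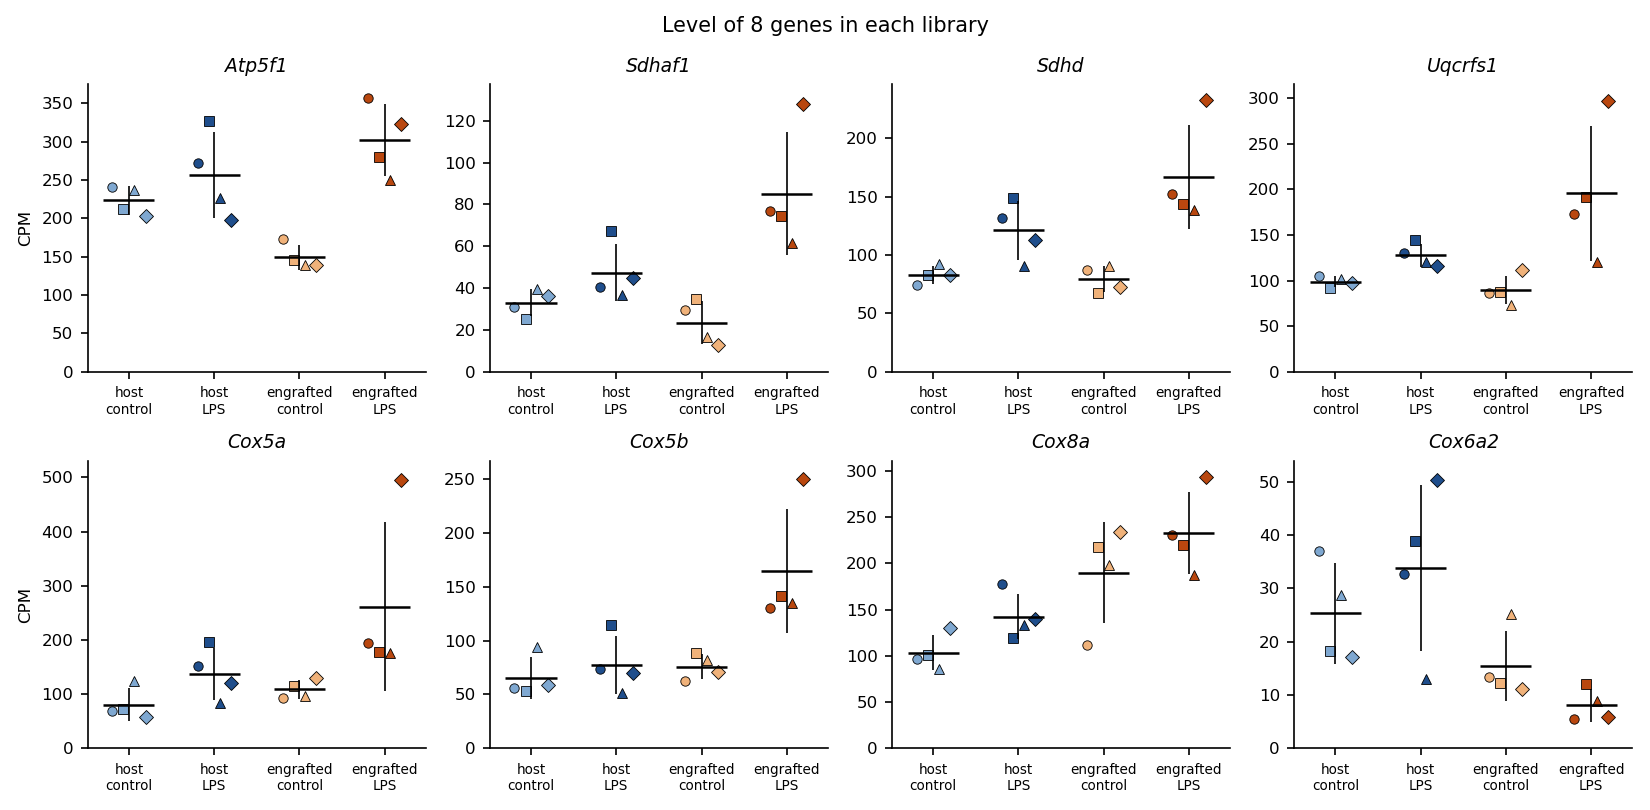
CPM of 8 genes in each of the 16 libraries; colours mark the groups, symbols the mice (circle 1 and 5, square 2 and 6, triangle 3 and 7, diamond 4 and 8), the line the mean and the bar the SD (n = 4). Atp5f1, Sdhaf1, Sdhd, Uqcrfs1, Cox5a and Cox5b are higher in every engrafted LPS library than in every engrafted control library, the highest of them being mouse 4 except for Atp5f1, and Cox6a2 is low in engrafted LPS libraries.

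In host microglia, 17 of 76 genes tested rose after LPS and 4 fell, where 19.5% of all genes rose and 20.7% fell. Of the 17, 0 rose more than 2-fold in edgeR (0 also at an unadjusted p below 0.05), where 6.7% of all genes did. Atp5s, a gene with few reads, fell more than 2-fold (9.26% of all genes). The median log2 change was 0.18, and 0.01 for all genes tested. Those that rose were 5 of 34 genes in complex I, 1 of 4 in complex II, 3 of 8 in complex III, 4 of 11 in complex IV and 4 of 13 in complex V. The number that rose was 11 without host library 1 or 5, 10 without host library 6 or 8, and 10 without mice 4 and 8. In that last case 5 fell, and 13 of the 21 calls held. Those of Atp5d, Atp5g1, Cox4i1, Cox5a, Cox7b, Uqcr11, Uqcrc2 and Uqcrq were lost.

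The smallest p among the genes called were those of Atp5b and Atp5g3 of the ATP synthase. Atp5b stood at 389.9, 311, 329 and 415 CPM in host control libraries. In host LPS libraries it stood at 651, 653, 494 and 549 CPM. The ranges were apart, and the log2 change was 0.69 (SE 0.15, edgeR adjusted p = 0.000516). Atp5g3 stood at 289, 292, 351 and 273 CPM and then at 492, 673, 397 and 427 CPM, a log2 change of 0.71 (SE 0.16, edgeR adjusted p = 0.000815). Atp5g1 (0.54) and Atp5d (0.36) rose too. Ndufs8, a core subunit of complex I that carries iron-sulfur clusters, rose by 0.58 (SE 0.15, edgeR adjusted p = 0.00231), from a mean of 169.9 ± 7.23 to 256.5 ± 40.5 CPM (SD, n = 4). Uqcrq rose by 0.54 (SE 0.16, edgeR adjusted p = 0.00696), with 1 control library inside the LPS range. In complex IV, Cox7b, Cox8a, Cox4i1 and Cox5a rose by 0.40 to 0.74. The calls of Atp5b, Atp5g3, Ndufs8 and Uqcrq held whichever host library was left out.

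The genes that fell in host microglia were Ndufa9 and Ndufa6 of complex I and the name-alike genes Atp5s and Sdhaf4. Ndufa9 (NM_025358, mm9 chr6:126771881-126799162) stood at 197, 143, 135 and 185.5 CPM without LPS and at 114, 100.2, 122 and 102 CPM with it. No host LPS library reached a host control library, and the fall was 0.58 on the log2 scale (SE 0.16, edgeR adjusted p = 0.00474). Ndufa6, an accessory subunit of the LYR family, stood at 187, 205, 186 and 167 CPM and then at 121, 141, 119 and 126 CPM. It fell by 0.55 on the log2 scale (SE 0.15, edgeR adjusted p = 0.00302), with no overlap. Atp5s, a factor known to couple proton flow to synthesis, was at 12.5 to 16.4 CPM and at 2.38 to 6.81 CPM with LPS. Its log2 change was -1.33 (SE 0.32, edgeR adjusted p = 0.00122), and -1.33 without mice 4 and 8. Atp5s had few reads, 2 to 7 in each host LPS library, and passed the count filter through the control libraries. With a filter of at least 10 reads in every library it was no longer tested, so the size of its fall is uncertain. Sdhaf4, an assembly factor of the flavoprotein subunit of complex II, had a log2 change of -0.89 (SE 0.32, edgeR adjusted p = 0.0249), a call that was lost without host library 1, 3, 5 or 6.

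Atp5b, Atp5d, Atp5g1, Atp5g3, Cox5a and Sdhd rose after LPS in both populations. These 6 genes were 26.1% of those that rose in engrafted cells and 35.3% of those that rose in host microglia. Over all genes tested, the genes that rose in both were 55.4% and 51.4% of the respective lists. Ndufa9 fell in both, but its call in engrafted cells was lost in DESeq2 and without most single libraries. Over all genes tested, the genes that fell in both were 61.6% of the engrafted and 53.0% of the host list. Whether a change differed between the populations was asked of each gene with all 16 libraries, as the log2 change in engrafted cells less that in host microglia. Of 78 genes tested, 2 had a higher value in engrafted cells and 0 a lower one in edgeR (11 and 2 at an unadjusted p below 0.05, and 0 lower in DESeq2), where 3.14% of all genes were called higher and 3.02% lower. One of the 2 passed 2-fold (2.44% of all genes). The median was 0.13, and -0.03 for all genes. The response of the other 76 genes was not shown to differ.

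Atp5f1, which encodes subunit b of the ATP synthase stalk (NM_009725, mm9 chr3:105745596-105763166), was the subunit gene called. It stood at 173, 146, 139 and 139 CPM in engrafted control libraries and at 357, 279.9, 249.8 and 323 CPM in engrafted LPS libraries. In host control libraries it stood at 242, 213, 237 and 203 CPM, and in host LPS libraries at 272, 327, 227 and 198 CPM. Engrafted control libraries were thus the lowest of the 4 groups with no overlap, while the host groups overlapped. The log2 change was 1.00 in engrafted cells, and the difference between the responses was 0.80 (SE 0.24, edgeR adjusted p = 0.0392). For Sdhaf1 the host libraries stood at 31.1, 25.0, 39.7 and 36.3 CPM without LPS and at 40.6, 67.1, 36.8 and 44.7 CPM with it. These host ranges overlapped, unlike those of engrafted cells, and the difference between the responses was 1.17 (SE 0.36, edgeR adjusted p = 0.0478).

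Both calls were close to the threshold and rested on single libraries. That of Atp5f1 was lost without engrafted library 1, 6, 7 or 8 or host library 3, 4, 5, 6 or 7 (edgeR adjusted p of 0.0569 to 0.104), and its value stayed between 0.70 and 0.94. That of Sdhaf1 was lost without engrafted library 1, 2, 4, 7 or 8 or host library 1, 3, 4, 5, 7 or 8 (edgeR adjusted p of 0.0557 to 0.121), with values of 0.98 to 1.39. Without mice 4 and 8 the values were 0.71 and 0.79 and both calls were lost (edgeR adjusted p = 0.0827 and 0.253).

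Without LPS, engrafted cells and host microglia differed in few of these genes. Of 76 tested, 8 were higher and 3 lower in engrafted cells, where 14.1% of all genes tested were higher and 14.1% lower. In edgeR 0 differed more than 2-fold (0 also at an unadjusted p below 0.05, and 0 in DESeq2), against 5.52% higher and 4.3% lower among all genes. The median log2 difference was 0.15, and 0.02 for all genes tested. The genes called higher were Cox8a and Cox4i1 of complex IV, Ndufb6 and Ndufa6 of complex I, Uqcrq of complex III, and Atp5j, Atp5j2 and Atp5h of complex V. Those called lower were Atp5f1, Ndufa9 and Sdhc.

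**Figure D3:**
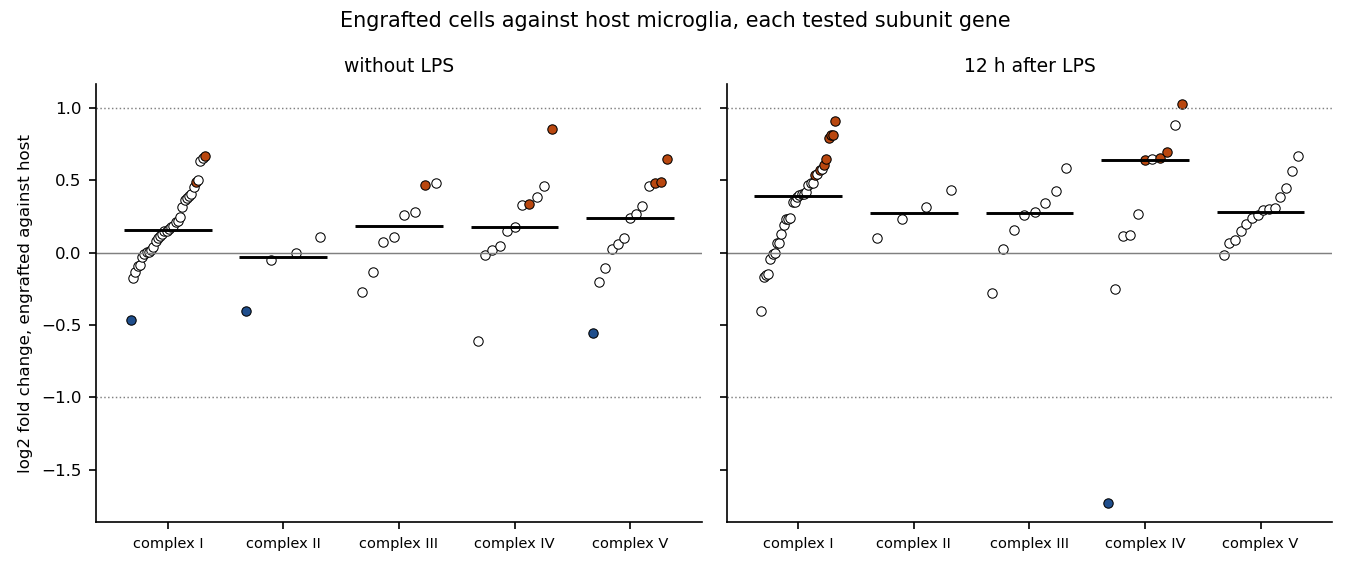
Log2 difference between engrafted cells and host microglia for each tested subunit gene without LPS (left) and 12 h after LPS (right), by complex; filled points were called (red higher, blue lower in engrafted cells), open points were not, bars mark the median and dotted lines 2-fold. Cox8a is the highest point without LPS, and after LPS 8 of 34 complex I genes are filled red and Cox6a2 is the lowest point.

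Cox8a, the smallest subunit of complex IV and a gene with a copy, had the largest difference among those called. It stood at 112, 217, 198 and 234 CPM in engrafted control libraries and at 96.4, 101, 85.7 and 130.0 CPM in host control libraries. Engrafted library 5 lay inside the host range and the other engrafted libraries above it, and the log2 difference was 0.85 (SE 0.19, edgeR adjusted p = 0.0011). Ndufa6 stood at 231, 273, 265 and 278 CPM in engrafted cells, above the 167 to 205 CPM of host microglia, a difference of 0.49 (SE 0.13, edgeR adjusted p = 0.00335). Within the ATP synthase stalk the genes differed in direction: Atp5f1 was lower by a log2 difference of -0.55 (SE 0.14, edgeR adjusted p = 0.00134), whereas Atp5h at 0.48 (SE 0.15, edgeR adjusted p = 0.0119) and Atp5j at 0.64 (SE 0.23, edgeR adjusted p = 0.0327), both with a copy, were higher.

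These calls depended on the libraries. Cox8a, Ndufa6 and Atp5f1 were called whichever library was left out, and these and Atp5h were called without mice 4 and 8. The number of genes higher was 19 without engrafted library 5, which had the lowest summed level of every complex in its group. It was 3 without engrafted library 6, 4 without engrafted library 7, 2 without engrafted library 8 and 5 without host library 6, 7 or 8. The number lower was 1 without engrafted library 6 or 8 or host library 8. Without mice 4 and 8, 3 genes were higher and 1 lower. With the mouse as a block, since both populations of a mouse share its number, 12 genes were higher and 2 lower, Sdhc (edgeR adjusted p = 0.0611) and Uqcrq (edgeR adjusted p = 0.162) were lost, and with unscaled library totals 3 were higher and 3 lower. Across the 76 genes, the log2 difference and the length of the transcript model had a Spearman's rho of -0.41, against 0.04 across all genes tested. All these points come from the same 8 libraries and genes are not independent replicates.

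After LPS, engrafted cells had the higher level in 13 of 75 genes tested and the lower level in 1, where 9.54% of all genes were higher and 7.68% lower. The median log2 difference was 0.30, and -0.01 for all genes tested. Complex I held 8 of the 13, and all but Ndufv2 were accessory subunits: Ndufa6, Ndufa7, Ndufb6, Ndufb7, Ndufb8, Ndufb9 and Ndufs6. The median difference was 0.41 over the 27 accessory genes tested and 0.00 over the 7 core genes. Called higher were 25.9% of the accessory and 14.3% of the core genes, and accessory genes are most of those tested in this complex. Across the 75 genes, the log2 difference and the length of the transcript model had a Spearman's rho of -0.31, against -0.18 across all genes tested. The part of length in these differences was not tested. Complex IV held 4 (Cox5b, Cox8a, Cox7a2 and Cox6b1), none was in complexes II, III or V, and the last was Sdhaf1. Over 2-fold were Cox5b, higher (6.34% of all genes), and Cox6a2, lower (3.91%).

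Cox5b stood at 131, 142, 134.5 and 250.3 CPM in engrafted LPS libraries and at 73.4, 115, 51.1 and 69.8 CPM in host LPS libraries. Every engrafted library was above every host library, and the log2 difference was 1.02 (SE 0.25, edgeR adjusted p = 0.00661), or 0.75 without mice 4 and 8. Ndufb8, an accessory subunit of the membrane arm, stood at 218, 202, 197 and 413 CPM against 144.5, 157, 122 and 114.5 CPM. The log2 difference was 0.91 (SE 0.23, edgeR adjusted p = 0.00928), and 0.55 without mice 4 and 8, where it was still called. Ndufa7 stood at 168, 203, 218 and 175 CPM against 108, 139, 84.3 and 102 CPM, a difference of 0.81 (SE 0.19, edgeR adjusted p = 0.00471) with no overlap. Ndufa6 was also higher by 0.81 (SE 0.20, edgeR adjusted p = 0.00826). Its level fell in host microglia, and in engrafted cells its log2 change with LPS was -0.22 (edgeR adjusted p = 0.376), but the difference between these responses was not called (0.32, edgeR adjusted p = 0.519).

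Cox6a2 (NM_009943, mm9 chr7:135348949-135349880) is the isoform of complex IV subunit 6a known from heart and skeletal muscle, and had few reads. It stood at 5.49, 12.0, 8.97 and 5.82 CPM in engrafted LPS libraries and at 32.7, 38.9, 13.1 and 50.3 CPM in host LPS libraries. The lowest host library lay just above the highest engrafted one, and the log2 difference was -1.73 (SE 0.36, edgeR adjusted p = 0.00172), or -1.48 without mice 4 and 8. Without LPS it stood at 13.3, 12.2, 25.1 and 11.1 CPM in engrafted cells and at 37.1, 18.3, 28.8 and 17.1 CPM in host microglia, ranges that overlapped, with a log2 difference of -0.61 (edgeR adjusted p = 0.123). With LPS in engrafted cells it had too few reads for edgeR, and a two-sided exact permutation test of the mean CPM gave p = 0.0571 (n = 4 and 4, smallest possible 0.029). Cox6a1, the isoform of most tissues and a gene with a copy, stood at 615 to 1307 CPM in engrafted LPS libraries and at 485 to 663 CPM in host LPS libraries, and was not called (log2 difference 0.65, edgeR adjusted p = 0.0537). With the mouse as a block it was called (edgeR adjusted p = 0.039).

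The calls of Cox5b, Cox6a2, Ndufa6, Ndufa7 and Ndufb8 held whichever library was left out. The number of genes higher was 6 without engrafted library 1, host library 1 or host library 4, 7 without engrafted library 2 and 4 without host library 3. Without mice 4 and 8, 13 were higher and 1 lower, but 10 of the 14 calls held, with those of Ndufb6, Ndufb9, Ndufv2 and Sdhaf1 lost. With unscaled library totals, 4 were higher and 2 lower, a scaling that moved the median of all genes to -0.15.

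The summed CPM of a complex, a description weighted by its most abundant transcripts, showed the levels side by side. Complex V summed to 2175 to 2867 CPM in engrafted control libraries and to 3234 to 3941 CPM in engrafted LPS libraries, a ratio of the means of 1.44. In host microglia it was 2190 to 2330 and 2594 to 3425 CPM, a ratio of 1.31. In both populations the ranges were apart. Complex IV had a ratio of 1.44 in engrafted cells and of 1.27 in host microglia, complex III of 1.31 and 1.25, and complex II of 1.42 and 1.13. The ranges of complex II overlapped in host microglia (478.8 to 575.3 CPM without LPS and 536.9 to 748.0 CPM with it), also without mice 4 and 8. Complex I had 1.18 and 1.03, and its control and LPS ranges overlapped in both populations. Without mice 4 and 8 the ratios in engrafted cells and host microglia were 1.43 and 1.35 for complex V, 1.404 and 1.28 for complex IV, 1.41 and 1.21 for complex III, 1.41 and 1.16 for complex II, and 1.19 and 1.03 for complex I, whose ranges were then apart in engrafted cells.

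**Figure D4:**
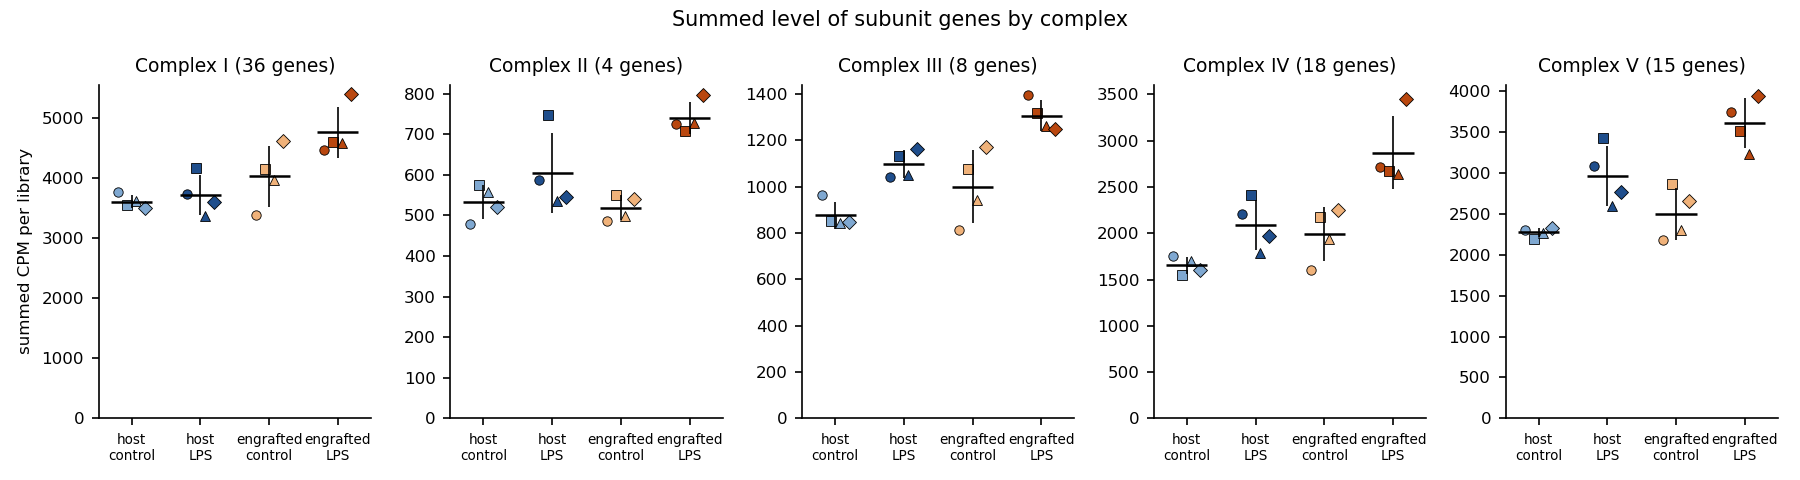
Summed CPM of the subunit genes of each complex in each library; colours mark the groups, symbols the mice, the line the mean and the bar the SD (n = 4). The complex V sums with LPS lie above those without it in both populations, and the engrafted LPS library of mouse 4 is highest for complexes I, II, IV and V.

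The share of all mapped tags that fell on genes was 64.0 to 66.3% in engrafted control and 68.3 to 76.5% in engrafted LPS libraries, and 65.1 to 70.9% and 66.9 to 69.9% in those of host microglia. It moved with the challenge in engrafted cells, and its part in the results was not tested. The share of reads on genes held by the 89 genes, which needs no scaling between libraries, was 0.903 to 1.10% and 1.22 to 1.33% in engrafted cells, and 0.929 to 0.996% and 1.02 to 1.23% in host microglia. In both populations every LPS library was above every control library.

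Genes that work with the complexes gave a mixed picture. In a list of electron carriers and exchangers that also holds Cyc1 and Atpif1, 3 of 8 genes tested rose and 1 fell in engrafted cells after LPS. In host microglia 4 of 9 rose. The shares of all genes, given above, were 19.6% higher and 19.3% lower in engrafted cells, and 19.5% and 20.7% in host microglia. Cyc1, the cytochrome c1 subunit of complex III that the symbols above leave out, rose by 1.08 in engrafted cells (edgeR adjusted p = 0.000101) and by 1.00 in host microglia (edgeR adjusted p = 7.09e-06). Slc25a5, which exchanges ADP and ATP, rose by 1.09 and 0.56 (edgeR adjusted p = 0.000186 and 0.00691). Atpif1, the inhibitor of the ATP synthase, fell by 0.58 on the log2 scale in engrafted cells (edgeR adjusted p = 0.015). Of 31 assembly factors tested in engrafted cells 4 rose and 4 fell, and of 34 in host microglia 5 rose and 4 fell. These were 12.9% in each direction in engrafted cells, and 14.7% higher and 11.8% lower in host microglia. Surf1, needed to assemble complex IV, had log2 changes of -1.67 and -0.69 (edgeR adjusted p = 3.04e-05 and 0.00558), while Cox10, which makes its heme, rose by 1.11 and 0.59 (edgeR adjusted p = 0.000163 and 0.0083).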

How the data were processed

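RNA of CD45.1 engrafted cells and CD45.2 host microglia from the brains of 8 chimeras was sequenced in 16 libraries prepared with a variant of MARS-seq, a 3′ method for polyadenylated RNA. The values deposited by the authors are unnormalized read counts for each gene: reads had been mapped to mm9 with HISAT (0.1.5 in the submitters' processing notes), uniquely mapped reads were kept, and HOMER counted the sense reads over exons, with 1 transcript model for each gene. The table also lists the transcript length and position of each gene. No removal of PCR duplicates is named in the sources used here, so precision set by depth (395283 to 1203597 reads on genes) covers counting error only.

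Groups were taken from the sample titles. The counts were analysed in R 4.3.3 with edgeR 4.0.16 (TMM scaling, filterByExpr with a minimum count of 10 and a minimum total of 15, robust quasi-likelihood tests, prior count 2), on the 8 libraries of each comparison or, for the difference in response, on all 16, with Benjamini-Hochberg adjustment over all genes tested and no term for the mouse. SE was the size of the log2 fold change over the root of its F statistic. Called genes had an adjusted p below 0.05, and the study's 2-fold threshold was counted separately. CPM used TMM library sizes of all 16 libraries. For a gene that failed the filter, mean CPM was compared by an exact permutation test, two-sided. Genes named are those called and over 2-fold, up to 12 per direction with the smallest adjusted p, the gene of each complex with the highest mean, tissue isoforms, and genes taken by name only. Copies were searched with BLAST+ 2.17.0. The scripts were tested on simulated data. The genes and lists were chosen with earlier results of these data known. The lists of electron carriers and exchangers, assembly factors, tricarboxylic acid cycle genes and regulators of mitochondrial biogenesis are given by their counts.

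Both populations of a mouse came from the same animal, so mouse numbers pair the libraries. After removal of group means, Pearson's r across genes between both libraries of a mouse was -0.03 to 0.21, and the mean r with the libraries of other mice was -0.06 to 0.01. Alternatives were the mouse as a block, RLE size factors, library totals, DESeq2 1.42.0, no filter, a single fit of all 16 libraries, a filter of at least 10 reads in every library, each library left out in turn, and, chosen after seeing the data, mice 4 and 8 left out.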

Additional observations from a re-analysis of the deposited data

Results flagged for a closer look

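In a group of 4 libraries, the following lay far from the other 3 by Dixon's criterion (the gap to the nearest over the range of the group), which chance meets in about 5% of groups. In engrafted LPS libraries it was mouse 4, the shallowest library, for Cox5a (494.8 CPM), Cox5b (250.3), Ndufa12 (160.1), Ndufb8 (413.3), Ndufb9 (340.5) and Sdhd (232.8), and for the summed levels of complex I (5402 CPM) and complex IV (3455), each the highest of its group. In engrafted control libraries it was Cox6a2 in mouse 7 (25.1 CPM) and Ndufs6 in mouse 6 (73.0). In host control libraries it was Cox4i1 (713 CPM) and the complex III sum (965) in mouse 5, Cox7a2 (68.3) and Ndufa7 (165.5) in mouse 6, Cox5b (94.3) in mouse 7, and Cox7b (42.3) and Ndufb8 (118) in mouse 8. In host LPS libraries it was Atp5j2 (280.1 CPM) and Cox6a1 (663) in mouse 2 and Sdhaf2 (22.6) in mouse 1.

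The responses of the populations to LPS differed by the test of the difference itself for Atp5f1 (0.80 on the log2 scale) and Sdhaf1 (1.17), as described above. Both calls were lost without some of the single libraries.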

How the results depend on the processing

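No called change turned its direction under any alternative run. Of the changes that were not called, that of Ndufa13 with LPS in engrafted cells was -0.08 to 0.14 with single libraries left out. Between engrafted cells and host microglia without LPS, 8 genes were higher and 3 lower. Higher were 3 with library totals, 5 with DESeq2 and 3 with all 16 libraries in one fit, and lower was 1 with DESeq2. Without mice 4 and 8, 3 were higher and 1 lower. Leaving out single libraries gave 2 to 19 higher, 1 to 3 lower and medians of 0.0925 to 0.26. After LPS, library totals gave 4 higher, 2 lower and a median of 0.16, a filter of at least 10 reads in every library gave 0 lower (Cox6a2 was no longer tested), and single libraries gave 4 to 15 higher, 1 lower throughout and medians of 0.27 to 0.38. For LPS in engrafted cells, 0 were lower with DESeq2 and 0 without mice 4 and 8, and single libraries gave 16 to 29 higher, 0 to 1 lower and medians of 0.21 to 0.37. For LPS in host microglia, 9 were higher with all 16 libraries in one fit and 10 without mice 4 and 8, and single libraries gave 10 to 20 higher, 3 to 6 lower and medians of 0.11 to 0.21. For the difference in response, 0 were higher with library totals, 1 with at least 10 reads in every library and 1 (Ndufs6) without mice 4 and 8, where the median was 0.27. Single libraries gave 0 to 5 higher, 0 lower and medians of 0.074 to 0.20. Except for the filter, the cause was not tested.

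With the mouse as a replicate block, 12 genes were higher and 2 lower without LPS, 15 and 1 after LPS, and 2 and 0 in the difference in response. Beyond Sdhc and Uqcrq it ended none of the calls. LPS within a population cannot be blocked, since its groups share no mouse. Library totals moved the median of all genes to -0.06 without and -0.15 after LPS. Genes under about 10 reads per library were not tested, which leaves changes in the 11 genes never tested undetectable at this depth.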

Other observations

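Among 13 genes of the tricarboxylic acid cycle, which feeds electrons into complexes I and II, 12 were tested. After LPS 5 rose and 1 fell in engrafted cells, and 5 rose and 2 fell in host microglia (background of all genes 19.6 and 19.3%, and 19.5 and 20.7%). Citrate synthase (Cs) rose by 0.87 and 0.48 on the log2 scale (edgeR adjusted p = 0.00247 and 0.0269) and Mdh2, malate dehydrogenase, by 0.84 and 0.52 (edgeR adjusted p = 0.000743 and 0.0114). Ogdh, of the oxoglutarate dehydrogenase complex, fell by 0.82 and 0.58 (edgeR adjusted p = 0.00769 and 0.0224).

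Among regulators of mitochondrial biogenesis, 2 of 10 tested rose and 1 fell in engrafted cells. In host microglia 3 of 9 rose and 1 fell. Over all genes tested, 19.6% rose and 19.3% fell in engrafted cells, and 19.5% rose and 20.7% fell in host microglia. The share of regulators that rose in engrafted cells was thus close to that of all genes. Ppargc1b, a coactivator of respiratory genes, rose by 1.05 in engrafted cells (edgeR adjusted p = 0.00758). In host microglia it had too few reads for edgeR, with 6.47 ± 1.23 CPM without LPS and 18.7 ± 10.1 CPM with it (SD, n = 4), and the difference between the responses was -0.20 (edgeR adjusted p = 0.772). Esrra, an ERR factor, rose by 0.41 in host microglia (edgeR adjusted p = 0.0277), and Pprc1, another coactivator, by 0.89 (edgeR adjusted p = 0.00194). In engrafted cells their changes were 0.22 and 0.54 and were not called (edgeR adjusted p = 0.335 and 0.124). Yy1, the YY1 factor, fell by 0.62 on the log2 scale in engrafted cells (edgeR adjusted p = 0.0148). Gabpb1, a subunit of an ETS family complex, fell by 0.92 in host microglia (edgeR adjusted p = 0.03). Yy1 in host microglia (-0.02, edgeR adjusted p = 0.942) and Gabpb1 in engrafted cells (0.20, edgeR adjusted p = 0.729) were not called. The difference between the responses was not called for Esrra, Pprc1, Yy1 or Gabpb1 (edgeR adjusted p of 0.214 to 0.699). Nrf1 and Gabpa were tested and not called in either population. Hif1a, the oxygen-regulated factor, rose by 1.496 and 0.91 (edgeR adjusted p = 0.000384 and 0.0144). Of Cox6b2, the isoform of complex IV subunit 6b known from testis, engrafted control libraries held 20.5, 12.2, 5.03 and 24.1 CPM and host control libraries 4.45, 8.66, 0 and 2.02 CPM. The ranges overlapped, and a two-sided exact permutation test gave p = 0.0571 (n = 4 and 4, smallest possible 0.029).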
